A study of Mus musculus with 8 samples.

Results

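The genes examined were 10 components of interleukin-6 (IL-6), interleukin-1 (IL-1) and STAT3 signalling in mouse liver: Il6ra, Il6st, Osmr, Il1r1, Il1rap, Stat3, Socs3, Nfkbiz, Cebpb and Cebpd. They were found by gene symbol in the annotation of the array, which held a transcript cluster (the probe set of the array for a transcript) for 9 of them. These 9 genes had 10 of the 35556 clusters, because Socs3 had 2. Il1r1, the signalling receptor of IL-1, was not analysed here. Of the 9 genes, 8 were among the 11963 genes kept for testing. Cebpd lay below the lowest mean signal kept (6.67 against 6.975), at rank 13627 by mean. Its values come from a fit without that filter.

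Male C57Bl/6J mice ate a high-fat diet (HFD, 42% of calories from fat) or a low-fat diet (LFD, 13%) and drank deionized water with or without sodium arsenite at 3 mg of inorganic arsenic (As) per litre. The 4 groups were HFD+As, HFD, LFD+As and LFD, where the last is the control diet on plain water. The protocols give 10 weeks of exposure and the source label 90 days, and this difference could not be resolved. Each group held 10 mice, and equal amounts of RNA from 5 mice were pooled for each array, which gave 2 arrays (replicates) per group and 8 in all.

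IL-6 binds its receptor subunit IL-6R, encoded by Il6ra, and the pair engages gp130, encoded by Il6st, the signalling subunit shared by the whole IL-6 family. Oncostatin M signals through gp130 paired with the receptor subunit encoded by Osmr. Kinases bound to gp130 phosphorylate STAT3, which moves to the nucleus, and STAT3 induces Socs3, whose product binds gp130 and shuts the signal off. IL-1 acts through its receptor and the accessory chain encoded by Il1rap to activate NF-kB, which induces Nfkbiz, the nuclear cofactor IkB-zeta. In hepatocytes these routes, with the factors C/EBP beta (Cebpb) and C/EBP delta (Cebpd), drive transcription of the acute phase proteins that the liver secretes during inflammation.

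Promoter sequences show where a DNA motif of the pathway's own factors lies in these genes. RefSeq (assembly GRCm38.p6) gave 250 bases upstream of an annotated start for 7 of the 9 measured genes. That start is not always the outer end of the gene span given below. The windows of Socs3 and Osmr lie inside the span, and those of Stat3 and Il1rap overlap it. The STAT motif TTCNNNGAA, searched on both strands, was present in 1 of the 7 windows, that of Socs3, and in 7.02% of 32851 windows of the same length. The match in Socs3 lay at positions -154 to -146 from that annotated start, within the gene span, and reads TTCTTAGAA. It is in capitals below. Neither the C/EBP motif TTGCNNAA (in 9.56% of all windows) nor the NF-kB consensus (7.25%) matched any of the 7. Socs3 is shown for its match, and Osmr, the receptor gene with the largest difference of HFD from LFD, and Cebpb, called for HFD+As against LFD, are shown as members with no match. The windows are chr11:117969367-117969616 (minus strand) for Socs3, chr15:6874314-6874563 (minus strand) for Osmr and chr2:167688665-167688914 (plus strand) for Cebpb, each written 5′ to 3′ on the strand of the gene.
Socs3: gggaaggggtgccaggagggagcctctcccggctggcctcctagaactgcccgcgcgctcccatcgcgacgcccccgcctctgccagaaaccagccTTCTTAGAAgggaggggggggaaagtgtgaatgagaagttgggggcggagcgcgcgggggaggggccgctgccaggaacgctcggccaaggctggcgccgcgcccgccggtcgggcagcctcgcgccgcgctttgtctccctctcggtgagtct
Osmr: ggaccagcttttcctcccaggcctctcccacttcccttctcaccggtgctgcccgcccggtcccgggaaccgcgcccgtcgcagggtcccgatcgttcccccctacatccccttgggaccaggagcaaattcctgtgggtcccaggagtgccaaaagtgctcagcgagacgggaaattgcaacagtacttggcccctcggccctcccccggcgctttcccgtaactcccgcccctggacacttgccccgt
Cebpb: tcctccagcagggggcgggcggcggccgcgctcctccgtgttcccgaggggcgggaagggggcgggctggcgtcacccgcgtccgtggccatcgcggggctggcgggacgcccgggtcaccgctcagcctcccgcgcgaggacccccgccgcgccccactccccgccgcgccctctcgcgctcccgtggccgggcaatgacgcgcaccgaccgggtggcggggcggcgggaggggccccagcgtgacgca
A match is a stretch of letters and not a measured binding site.

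Signals are log2 values as deposited, and a difference of 1 is a doubling. They can be compared between groups for 1 gene, not between genes. Nfkbiz was higher in HFD than in LFD livers and Cebpb was higher in HFD+As than in LFD livers, and these were the 2 pairwise differences that passed an adjusted p of 0.05. The 4 receptor genes, Stat3, Socs3 and Cebpd passed in none of the 5 pairwise comparisons. On plain water, all 8 tested genes had a mean signal above that of LFD in HFD livers, and 7 of the 8 had a lower mean in HFD+As than in HFD livers, a comparison in which 27.7% of all tested genes were above 0. Each p-value measures the spread between pools of 5 mice, not between mice.

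**Figure D1:**
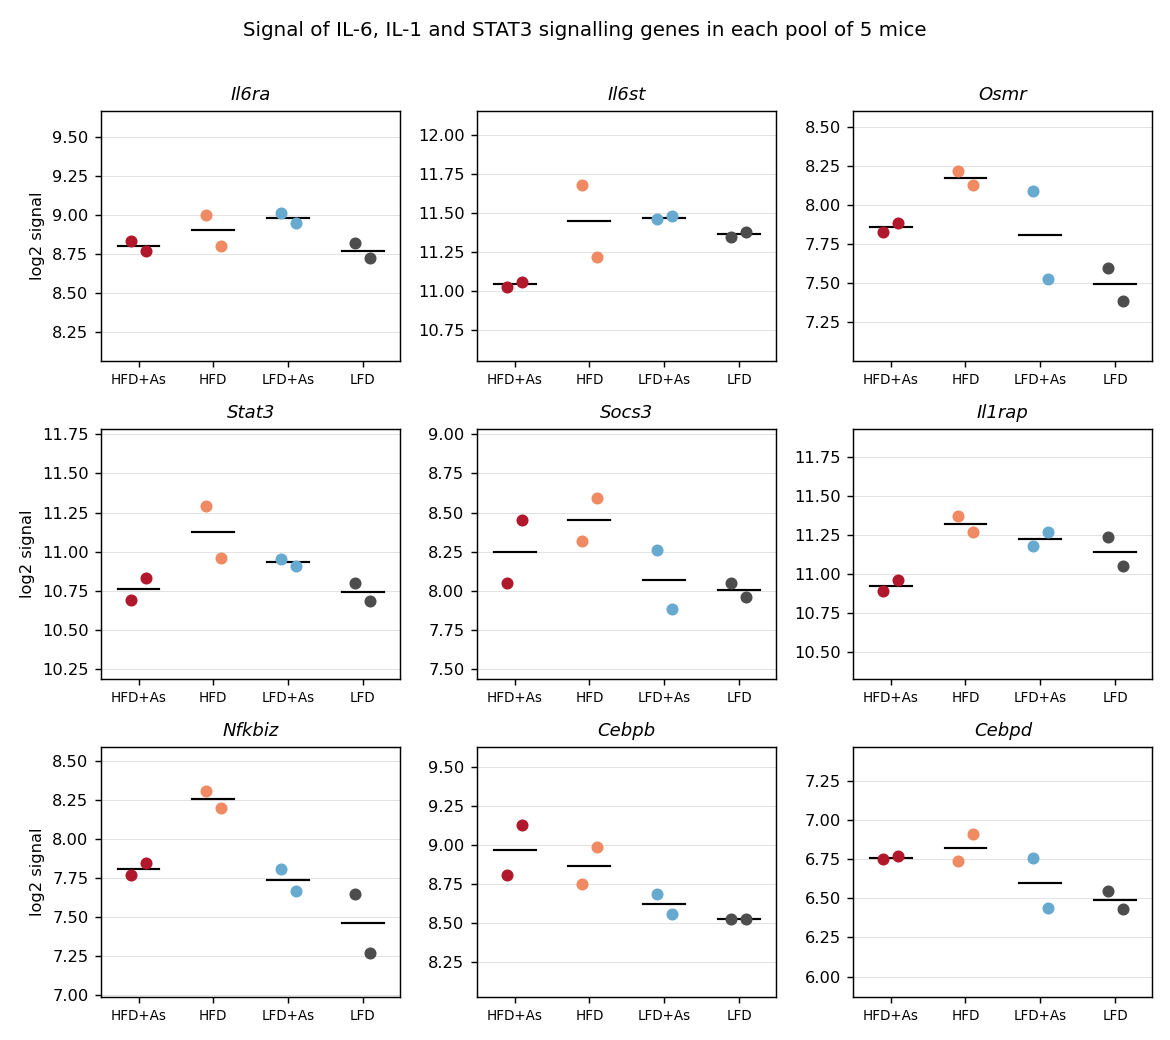
Log2 signal of each of the 9 measured genes (vertical axis, same height of range in each panel) in HFD+As, HFD, LFD+As and LFD livers; each point is 1 array of 5 pooled mice and each line is a group mean. The Nfkbiz points of HFD (8.31 and 8.20) lie above all other arrays, and the Il6st points of HFD+As (11.03 and 11.06) lie below all other arrays.

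Among the receptors, Osmr had signals of 7.83 and 7.89 in HFD+As, 8.22 and 8.13 in HFD, 8.09 and 7.53 in LFD+As and 7.60 and 7.39 in LFD livers. Both HFD arrays and both HFD+As arrays were above both LFD arrays, while the LFD+As pools were 0.56 apart and spanned much of the range. Osmr (chr15:6813568-6874968) was 1.60-fold higher in HFD than in LFD livers by its means (log2 fold change 0.68, SE 0.16, adjusted p = 0.1), which did not pass. In the ordering of group means, HFD came first, HFD+As and LFD+As overlapped, and LFD came last. The call depended on the fit: with an intensity trend in the prior the adjusted p was 0.0444, with the compared groups alone it was 0.0338, and without either LFD+As array it was 0.0209. It was 0.158 after quantile normalization and 0.246 with no filter on dim genes, and 6 of the 8 fits that left out an array did not call it (0.57 to 0.79 over all 8).

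Il6st (chr13:112464070-112506860), the gp130 gene, behaved differently from Osmr in HFD+As livers. Its signals were 11.03 and 11.06 in HFD+As, 11.68 and 11.22 in HFD, 11.46 and 11.48 in LFD+As and 11.35 and 11.38 in LFD livers. The HFD+As arrays were the lowest of the 8 and did not overlap with any group, while the HFD pools were 0.45 apart, on either side of LFD. The log2 fold change was -0.41 for HFD+As against HFD (SE 0.14, adjusted p = 0.0949), -0.42 against LFD+As (SE 0.14, adjusted p = 0.0669) and -0.32 against LFD (SE 0.14, adjusted p = 0.134). None passed in the reported fit of all 8 arrays. With an intensity trend and robust prior in limma, also on all 8 arrays, the difference from LFD+As passed (adjusted p = 0.0408). The difference from HFD rested on which HFD pool was kept: it was -0.18 without HFD replicate 1, which was not called, and -0.63 without HFD replicate 2 (adjusted p = 0.024), and the other 6 fits that left out an array did not call it. Without either HFD array the unchanged difference from LFD+As had an adjusted p of 0.031, against 0.0424 with the compared groups alone.

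Il1rap (chr16:26581509-26730128), the accessory chain of the IL-1 receptor, had signals of 10.89 and 10.96 in HFD+As, 11.37 and 11.27 in HFD, 11.18 and 11.27 in LFD+As and 11.24 and 11.05 in LFD livers. HFD+As was again the lowest group, without overlap, and the arrays of the other groups lay between 11.05 and 11.37. Il1rap was lower in HFD+As than in HFD livers by its means (log2 fold change -0.40, SE 0.12, adjusted p = 0.0684), which missed the threshold.

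Il6ra (chr3:89869324-89913196), which binds IL-6 itself, varied least among the receptors. Signals were 8.83 and 8.77 in HFD+As, 9.0 and 8.80 in HFD, 9.01 and 8.95 in LFD+As and 8.82 and 8.72 in LFD livers. Only LFD+As stood above both HFD+As and LFD without overlap, and the interval of the HFD minus LFD difference ran from -0.12 to 0.38 on the log2 scale.

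Stat3 (chr11:100886806-100939594), the transcription factor at the centre of the route, had signals of 10.69 and 10.83 in HFD+As, 11.29 and 10.96 in HFD, 10.95 and 10.91 in LFD+As and 10.80 and 10.68 in LFD livers. HFD was highest and LFD+As next, and the HFD+As and LFD arrays overlapped. The log2 fold change was 0.385 for HFD against LFD (95% interval 0.11 to 0.67, adjusted p = 0.311) and -0.365 for HFD+As against HFD (interval -0.65 to -0.08, adjusted p = 0.105). HFD+As and LFD differed by 0.02 (interval -0.26 to 0.30). The difference between HFD+As and HFD was -0.20 without HFD replicate 1 and -0.53 without HFD replicate 2, the lower of the HFD pools (adjusted p = 0.0425), and 7 of the 8 fits that left out an array did not call it.

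Socs3 (chr11:117966079-117970336), the feedback inhibitor and itself a target of STAT3, had signals of 8.05 and 8.45 in HFD+As, 8.32 and 8.59 in HFD, 8.26 and 7.88 in LFD+As and 8.05 and 7.96 in LFD livers. Both HFD arrays were above both LFD arrays, while pools within HFD+As and within LFD+As differed by 0.40 and 0.38. The log2 fold change of HFD against LFD was 0.45 (SE 0.16, adjusted p = 0.334), and that of HFD+As against LFD was 0.25 (SE 0.16, adjusted p = 0.323). The second cluster of Socs3 was dimmer, at 7.38 and 7.08 in HFD+As, 7.02 and 7.02 in HFD, 7.14 and 6.78 in LFD+As and 6.96 and 6.96 in LFD livers. It gave 0.06 for HFD against LFD, and for HFD+As against HFD the clusters had opposite signs, -0.20 for the brighter and 0.21 for the dimmer.

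Nfkbiz (chr16:55811375-55838954), the IkB-zeta gene, gave the largest diet difference of the 9 genes on plain water. Signals were 7.77 and 7.85 in HFD+As, 8.31 and 8.20 in HFD, 7.81 and 7.67 in LFD+As and 7.65 and 7.27 in LFD livers. Both HFD arrays were above the other 6, the HFD+As and LFD+As arrays overlapped, and the LFD pools were 0.38 apart. Nfkbiz rose 1.74-fold in HFD against LFD livers (log2 fold change 0.80, SE 0.14, 95% interval 0.51 to 1.09, adjusted p = 0.0203). This call did not hold in every fit: leaving out LFD replicate 1 gave an adjusted p of 0.0645 (log2 fold change 0.99) and leaving out LFD replicate 2 gave 0.278 (0.61). Leaving out HFD replicate 1 gave 0.0913 (0.74), and HFD replicate 2 gave 0.0841 (0.86). It was 0.0572 after quantile normalization and 0.0696 with no filter on dim genes. HFD+As livers were between HFD and LFD, with log2 fold changes of -0.45 against HFD (SE 0.14, adjusted p = 0.074) and 0.35 against LFD (SE 0.14, adjusted p = 0.0946). The difference from LFD had an adjusted p of 0.0352 after quantile normalization (0.47). It was 0.0462 with the trend of signals with genomic span removed (0.45).

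Cebpb (chr2:167688915-167690432), encoding the factor first described as a nuclear factor for IL-6 expression, was highest in HFD+As livers. Signals were 8.81 and 9.13 in HFD+As, 8.75 and 8.99 in HFD, 8.69 and 8.56 in LFD+As and 8.53 and 8.53 in LFD livers. All 4 arrays of mice fed HFD were above all 4 arrays of mice fed LFD, and the HFD+As and HFD arrays overlapped. Cebpb rose 1.36-fold in HFD+As against LFD livers (log2 fold change 0.44, SE 0.13, 95% interval 0.15 to 0.73, adjusted p = 0.0428). The call was lost without any 1 of 6 arrays: the adjusted p was 0.165 without LFD replicate 1, 0.116 without LFD replicate 2, 0.0515 without either LFD+As array, 0.0573 without HFD+As replicate 1 (log2 fold change 0.60) and 0.237 without HFD+As replicate 2 (0.28). With no filter on dim genes the adjusted p was 0.0888. The difference of HFD from LFD on plain water was 0.34 (SE 0.13, adjusted p = 0.401).

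Cebpd (chr16:15887286-15889545), a relative of Cebpb induced early in the acute phase, was dim on this array. Signals were 6.75 and 6.77 in HFD+As, 6.74 and 6.91 in HFD, 6.76 and 6.44 in LFD+As and 6.55 and 6.43 in LFD livers. Both HFD+As arrays and both HFD arrays lay above both LFD arrays, and 1 LFD+As pool was at the level of the HFD groups. In the fit of all 19938 genes the log2 fold change was 0.26 for HFD+As against LFD (adjusted p = 0.302) and 0.34 for HFD against LFD (adjusted p = 0.556).

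**Figure D2:**
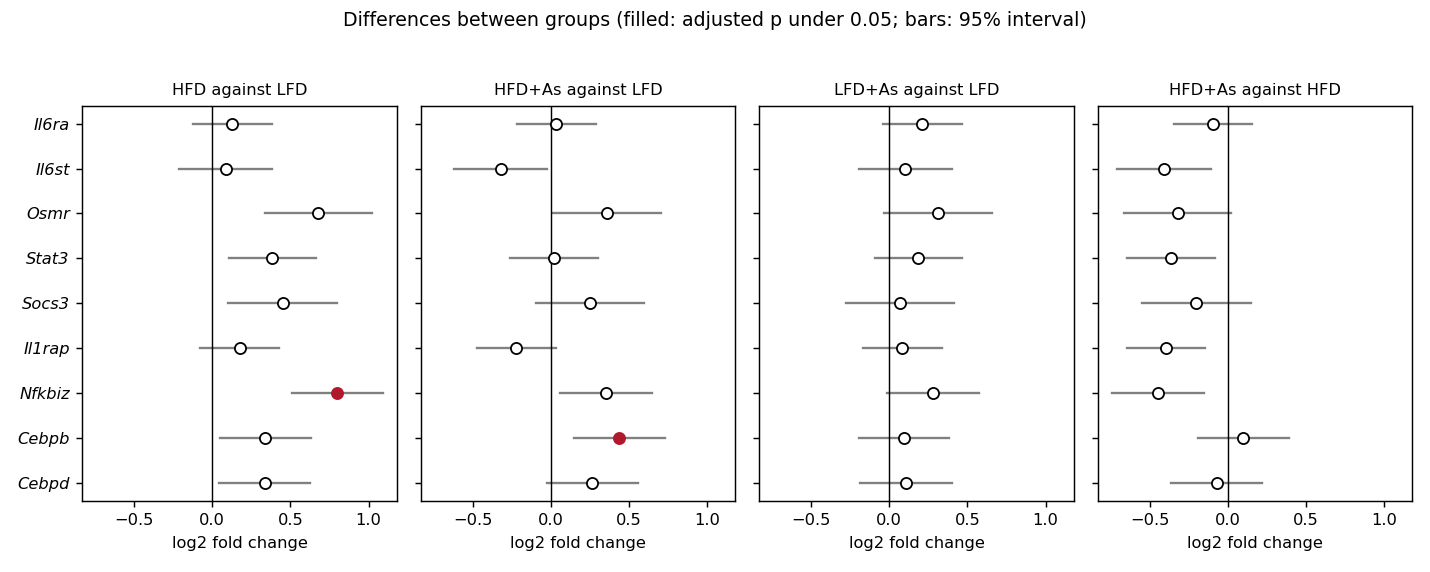
Log2 fold changes (horizontal axis) of the 9 genes for HFD against LFD, HFD+As against LFD, LFD+As against LFD and HFD+As against HFD; points are estimates, bars are 95% intervals, and filled points passed an adjusted p of 0.05. The filled points are Nfkbiz for HFD against LFD (0.80) and Cebpb for HFD+As against LFD (0.44).

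The first comparison asked what the high-fat diet did on plain water. For HFD against LFD, 1 of the 8 tested members passed, Nfkbiz, where 0.460% of all tested genes passed (0.343% as higher). All 8 were above 0, against 53.3% of all tested genes, and their median log2 fold change was 0.36, against 0.01 over all tested genes. Of the 9 measured members, Cebpd among them, 7 had both HFD arrays above both LFD arrays, and the arrays of Il6ra and Il6st overlapped. That pattern was seen in 21.7% of all tested genes and in 16.1% of all 19938 genes. An unadjusted p under 0.05 was reached by 5 members, which are Nfkbiz, Osmr, Stat3, Socs3 and Cebpb, and by 10.3% of all tested genes. The count above 0 was 7 of 8 without HFD replicate 1, where Il6st fell below 0 at -0.14.

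Arsenite on the low-fat diet gave no called member. For LFD+As against LFD, 0 of 8 passed in limma (0.0669% of all tested genes passed), and 0 had an unadjusted p under 0.05 (3.35% of all tested genes did). All 8 were above 0, against 47.5% of all tested genes, with log2 fold changes from 0.07 for Socs3 to 0.31 for Osmr and a median of 0.145, against -0.01 over all tested genes. Stat3, Il6ra, Il6st, Cebpb and Nfkbiz had both LFD+As arrays above both LFD arrays, and 12.7% of all tested genes did. The direction of Socs3, Il1rap and Cebpd turned in at least 1 of the other fits.

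Arsenite on the high-fat diet gave no called member, and most members, like most tested genes, had lower means with it. For HFD+As against HFD, 0 of 8 passed in limma (3.63% of all tested genes passed, 3.25% as lower), and 4 had an unadjusted p under 0.05, against 26.2% of all tested genes. Of the 8, 7 were below 0 and Cebpb was above 0 (log2 fold change 0.10), while 27.7% of all tested genes were above 0. Nfkbiz, Il6st, Il1rap, Stat3 and Osmr had both HFD+As arrays below both HFD arrays, as did 45.8% of all tested genes. The median over members was -0.342 and that over all tested genes was -0.125. Quantile normalization moved the median of all tested genes to -0.00229 and that of the members to -0.204. Relative to the median of all tested genes, Nfkbiz was at -0.32, Il6st at -0.28, Il1rap at -0.27, Stat3 at -0.24 and Osmr at -0.19, whereas Il6ra was at 0.03 and Cebpb at 0.23. The sign was not kept by 3 members: Il6ra was at 0.10 after quantile normalization, Socs3 at 0.00422 with the mean of its clusters, and Cebpb at -0.03 with the span trend removed. The count of members called was 2 without HFD replicate 2 (Il6st and Stat3) and 1 with an intensity trend and robust prior (Nfkbiz).

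**Figure D3:**
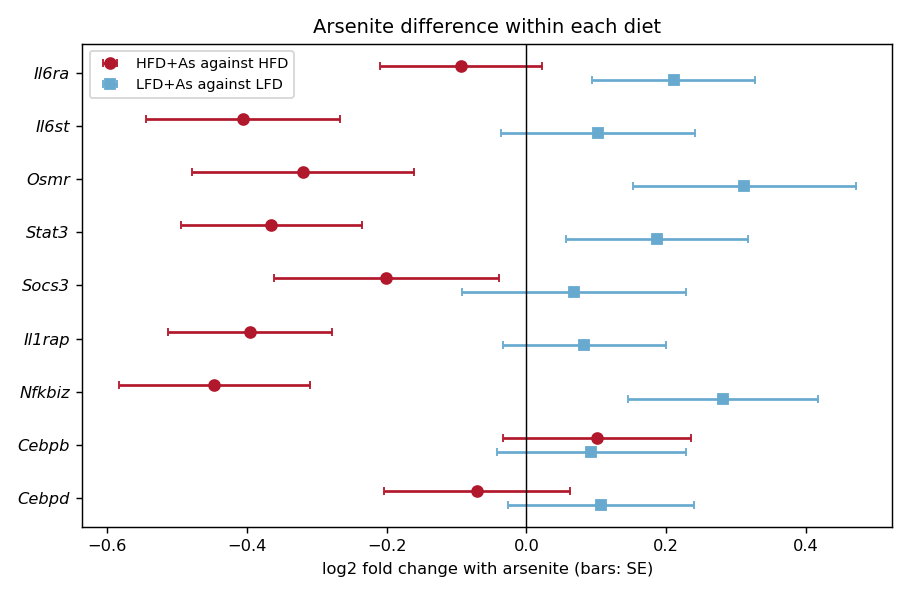
Log2 fold change with arsenite (horizontal axis) of the 9 genes on each diet, as HFD+As against HFD and LFD+As against LFD. Bars are SE from the limma fit of all 8 arrays, in which the 4 groups share the estimate of the spread. On the high-fat diet 7 of the 8 tested genes are below 0 and on the low-fat diet all 8 are above 0, while both Cebpb points lie near 0.1.

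The difference between these arsenite effects was tested directly. Subtracting the LFD effect from the HFD effect gave a value below 0 for 7 of the 8 members, from -0.27 for Socs3 to -0.73 for Nfkbiz, and it was 0.01 for Cebpb. No member passed (adjusted p from 0.191 to 0.987), 0% of all tested genes passed in limma, and 5 members had an unadjusted p under 0.05, against 13.9% of all tested genes. The members' median was -0.494, against -0.122 over all tested genes, of which 31.6% were above 0. After quantile normalization the members' median was -0.35 and that of all tested genes -0.00366. The HFD arrays enter this contrast and both HFD comparisons above, so the 3 do not give separate support.

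Both exposures together were compared with the control group. Here 1 of 8 members passed, Cebpb, where 16.0% of all tested genes passed for HFD+As against LFD (3.59% as higher, 12.4% as lower), and 4 members had an unadjusted p under 0.05, against 30.8% of all tested genes. The members were split: 6 were above 0 (33.4% of all tested genes were) and 2 below. Cebpb, Osmr, Nfkbiz, Socs3 and Cebpd had both HFD+As arrays above both LFD arrays, as did 13.5% of all tested genes and 14.1% of all 19938 genes. For Socs3 the gap between the nearest arrays of the groups was only 0.0062, against 0.274 for Cebpb. Il6st and Il1rap had both below, as did 41.4% of all tested genes. Il6ra and Stat3 overlapped. After quantile normalization 2 members passed, Cebpb (log2 fold change 0.57, adjusted p = 0.0291) and Nfkbiz (0.47).

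Diet under arsenite gave 0 called members of 8 in limma for HFD+As against LFD+As (10.3% of all tested genes passed), and 3 had an unadjusted p under 0.05, against 28.1% of all tested genes. Of the 8, 4 were above 0, against 34.4% of all tested genes. Il6st, Il1rap, Il6ra and Stat3 had both HFD+As arrays below both LFD+As arrays, as did 43.8% of all tested genes, and Cebpb had both above, as did 15.6% of all tested genes. The log2 fold change of Cebpb was 0.35 (SE 0.13, adjusted p = 0.113). The members' median was -0.06 and turned to 0.05 after quantile normalization.

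Averaging over both waters compares 4 arrays of HFD-fed mice with 4 of LFD-fed mice. Nfkbiz (log2 fold change 0.44, SE 0.10, adjusted p = 0.0212) and Cebpb (0.34, SE 0.10, adjusted p = 0.0453) rose, 2 of 8 members, where 7.65% of all tested genes passed (2.98% as higher). Only Cebpb had no overlap between the diets, which held for 4.85% of all tested genes as higher. The Cebpb call held in 1 of the 8 fits that left out an array, that without HFD replicate 1, and its adjusted p was 0.0533 with the replicate number as a block. The Nfkbiz call was lost without LFD replicate 2 (adjusted p = 0.075), LFD+As replicate 2 (0.0867), HFD replicate 2 (0.0729) and HFD+As replicate 1 (0.0659). With no filter the adjusted p was 0.0541 for Nfkbiz and 0.0984 for Cebpb. With the span trend removed it was 0.062 for Cebpb (log2 fold change 0.33), which lost its call, and 0.0224 for Nfkbiz (0.48). Osmr (0.36, SE 0.11, adjusted p = 0.065) passed without LFD+As replicate 1 (0.50, adjusted p = 0.013), and its adjusted p was 0.293 without LFD+As replicate 2 (0.22). It also passed with the intensity trend and robust prior (adjusted p = 0.0398) and with the span trend removed (0.0462). Averaged over both diets, arsenite called 0 of 8 members in limma, where 0.568% of all tested genes passed, and 0 had an unadjusted p under 0.05, against 15.4% of all tested genes.

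**Figure D4:**
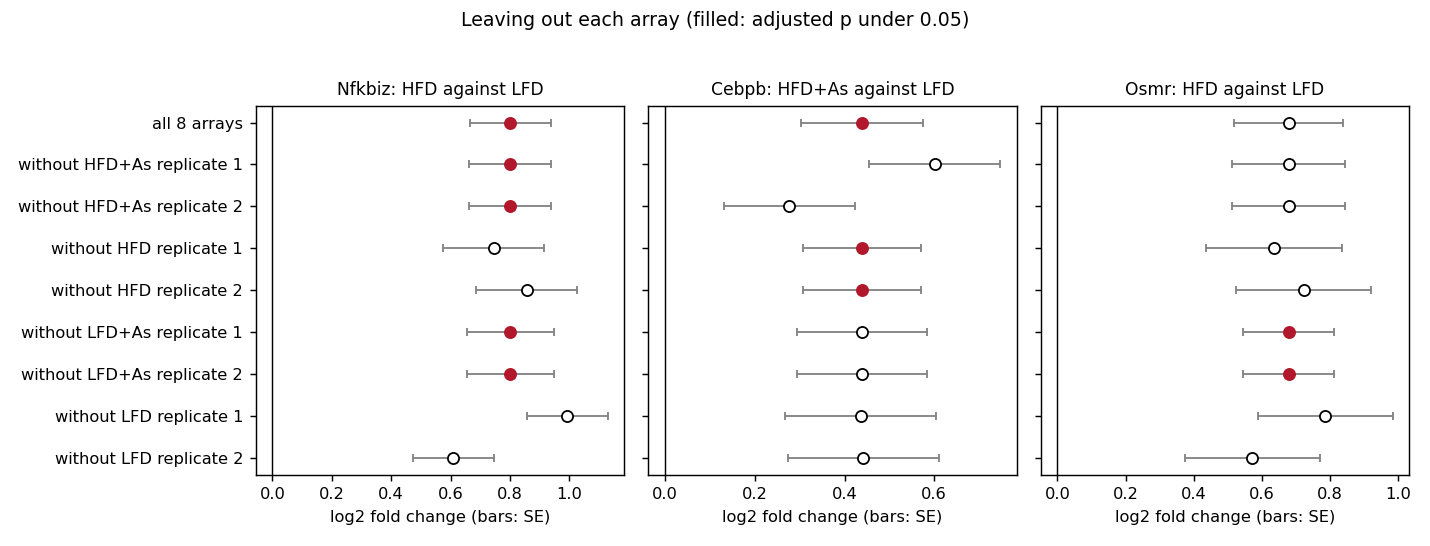
Log2 fold change (horizontal axis) of Nfkbiz for HFD against LFD, Cebpb for HFD+As against LFD and Osmr for HFD against LFD, with all 8 arrays and with each array left out; bars are SE and filled points passed an adjusted p of 0.05. Nfkbiz stays between 0.61 and 0.99 and Cebpb between 0.28 and 0.60, while whether they pass changes with the array left out.

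Other genes of the pathways were followed by lists, with the 10 genes above left out. Counts of a list are read against the share of all tested genes that passed, given above. In the list of NF-kB subunits and inhibitors, 13 of 17 genes were tested, and 2 rose and 0 fell in HFD against LFD livers, with a list median of 0.21. Both encode brakes on NF-kB that NF-kB itself induces. Nfkbia, encoding IkB-alpha, had signals of 9.21 and 9.08 in HFD+As, 9.73 and 9.55 in HFD, 9.14 and 9.24 in LFD+As and 8.91 and 8.88 in LFD livers. Both HFD arrays of Nfkbia were the highest and both LFD arrays the lowest. Nfkbia rose by 0.75 in HFD against LFD (SE 0.12, adjusted p = 0.0167) and fell by 0.49 in HFD+As against HFD (log2 fold change -0.49, SE 0.12, adjusted p = 0.0416). Tnfaip3, encoding the deubiquitinase A20, had 7.26 and 7.49 in HFD+As, 8.10 and 7.81 in HFD, 7.92 and 7.56 in LFD+As and 7.01 and 7.22 in LFD livers, and it rose by 0.84 in HFD against LFD (SE 0.15, adjusted p = 0.0294). The HFD against LFD calls of Nfkbia were lost without LFD replicate 1, LFD replicate 2 or HFD replicate 1 (log2 fold change 0.66 to 0.83 over the fits that left out an array), and those of Tnfaip3 without any 1 of the 4 compared arrays (0.70 to 0.98). After quantile normalization 0 genes of this list passed for HFD against LFD, and over all other settings the adjusted p reached 0.0584 for Nfkbia and 0.0964 for Tnfaip3. The fall of Nfkbia in HFD+As against HFD held in 1 of the 8 fits that left out an array, with values from -0.58 to -0.41, and its adjusted p reached 0.158 in the other settings.

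Of the IL-1 ligands, decoys and adaptors, 16 of 22 were tested, and 1 rose and 0 fell in HFD against LFD livers. Il1a, encoding the ligand IL-1 alpha, had signals of 7.98 and 7.82 in HFD+As, 7.97 and 8.44 in HFD, 7.61 and 7.75 in LFD+As and 7.41 and 7.32 in LFD livers. Both HFD-fed groups were above both LFD-fed groups. Il1a rose by 0.85 in HFD against LFD (SE 0.15, adjusted p = 0.0238) and by 0.53 in HFD+As against LFD (SE 0.15, adjusted p = 0.0289). The first call was lost without LFD replicate 1, LFD replicate 2 or HFD replicate 2 (0.61 to 1.08 over the fits), and the second without LFD replicate 1, LFD replicate 2 or HFD+As replicate 1 (0.45 to 0.61). In HFD+As against LFD livers 2 genes of this list fell: Tab2, an adaptor of the kinase TAK1 (log2 fold change -0.62, SE 0.14, adjusted p = 0.0106), and Il33, an IL-1 family alarmin (-0.48, SE 0.15, adjusted p = 0.0476). Both calls were lost without either LFD array or HFD+As replicate 1, with log2 fold changes from -0.73 to -0.51 for Tab2 and from -0.71 to -0.26 for Il33 over the fits that left out an array. Over the other settings the adjusted p reached 0.0931 for the first Il1a call, 0.0651 for the second and 0.14 for Il33, and it stayed under 0.05 for Tab2.

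Of the gp130 ligands and receptors, 9 of 15 were tested, and none passed for HFD against LFD. Lifr, the receptor subunit through which leukaemia inhibitory factor engages gp130, had signals of 10.70 and 10.84 in HFD+As, 11.28 and 10.84 in HFD, 11.17 and 11.04 in LFD+As and 11.40 and 11.69 in LFD livers. The LFD arrays were the highest. Lifr fell in HFD+As against LFD livers (log2 fold change -0.78, SE 0.15, adjusted p = 0.00756), a call lost without LFD replicate 2 or HFD+As replicate 1 (-0.92 to -0.63 over the fits). It was the only gene of its list to pass a pairwise comparison.

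Of the JAK-STAT transducers and brakes, 22 of 25 were tested. None passed for HFD against LFD, and 5 fell and 0 rose in HFD+As against LFD livers, with a list median of -0.22. The falls with the largest change were those of Socs2 and Cish, feedback inhibitors of growth hormone and cytokine signalling, Stat5b, the transducer of growth hormone, and Tyk2, a kinase that binds gp130. Tyk2 had signals of 7.97 and 8.28 in HFD+As, 8.74 and 8.69 in HFD, 8.55 and 8.53 in LFD+As and 8.67 and 8.45 in LFD livers, so both HFD+As arrays were the lowest of the 8. Its log2 fold change was -0.59 for HFD+As against HFD (SE 0.13, adjusted p = 0.037) and -0.44 against LFD (SE 0.13, adjusted p = 0.039). The first call was lost without either LFD array, HFD replicate 1 or HFD+As replicate 1 (-0.75 to -0.43), with an adjusted p of up to 0.123 in the other settings, and the second without any LFD or LFD+As array or HFD+As replicate 1 (-0.59 to -0.28; up to 0.0989). Socs2 had 8.69 and 8.47 in HFD+As, 9.45 and 9.19 in HFD, 8.51 and 7.82 in LFD+As and 10.14 and 10.27 in LFD livers. Its fall in HFD+As against LFD (log2 fold change -1.62, SE 0.19, adjusted p = 0.000814) held in all 8 fits that left out an array. Socs2 also fell with arsenite alone, in LFD+As against LFD (-2.04, SE 0.19, adjusted p = 0.000546; lost without LFD replicate 1, at 0.055), and in HFD+As against HFD (-0.74, SE 0.19, adjusted p = 0.0481). This last call held in 3 of the 8 fits that left out an array, and its adjusted p was 0.177 after quantile normalization. The effects on the 2 diets differed by 1.299 (SE 0.26, adjusted p = 0.117). Cish (-1.03, SE 0.25, adjusted p = 0.0182) lost its call without LFD replicate 1, LFD replicate 2 or HFD+As replicate 1 (-1.52 to -0.54), after quantile normalization and with the intensity trend and robust prior, where the adjusted p was 0.147. Stat5b (-0.75, adjusted p = 0.00917) lost its call without LFD replicate 1 or HFD+As replicate 1 (-0.82 to -0.69). Between HFD+As and HFD livers, 21 of the 22 genes were below 0, where 27.7% of all tested genes were above 0. After quantile normalization 14 of 22 were below 0, with a list median of -0.07, against -0.00229 over all tested genes.

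**Figure D5:**
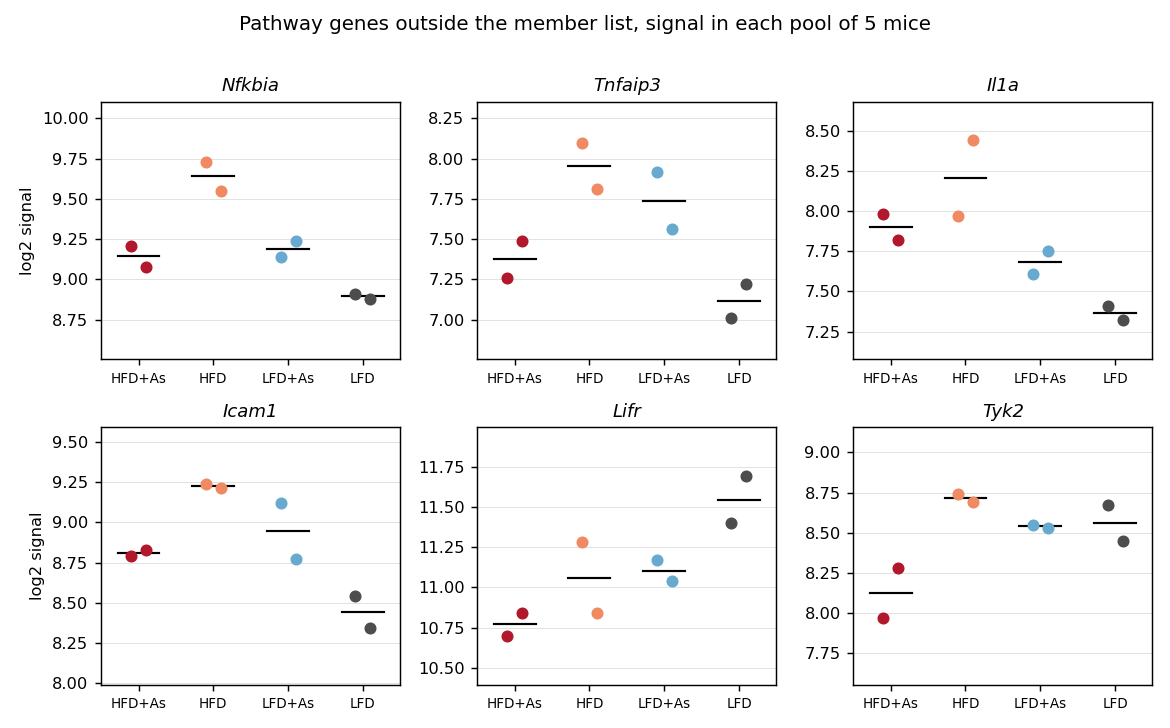
Log2 signal of 6 pathway genes outside the member list (vertical axis) in HFD+As, HFD, LFD+As and LFD livers; points are arrays of 5 pooled mice and lines are group means. Nfkbia, Tnfaip3, Il1a and Icam1 have their highest group mean in HFD, and Lifr and Tyk2 their lowest in HFD+As.

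Of the immediate response genes of IL-6, 15 of 19 were tested, and 1 rose in HFD against LFD livers. Icam1, an adhesion molecule induced by IL-1 and IL-6, had 8.79 and 8.83 in HFD+As, 9.24 and 9.21 in HFD, 9.12 and 8.77 in LFD+As and 8.54 and 8.34 in LFD livers. Its log2 fold change was 0.78 (SE 0.13, adjusted p = 0.02), and the call was lost without any 1 of the 4 compared arrays (0.69 to 0.88), with an adjusted p of up to 0.0691 in the other settings. In HFD+As against LFD livers Steap4, a metalloreductase, rose by 0.88 (SE 0.26, adjusted p = 0.0362), while the survival factor Mcl1 (log2 fold change -0.75, SE 0.13, adjusted p = 0.00534) and the AP-1 subunit Jun (-0.59, SE 0.12, adjusted p = 0.00976) fell. The Steap4 call was lost without any 1 of the 4 compared arrays (0.67 to 1.09), with an adjusted p of up to 0.237 in the other settings. The Mcl1 call was lost without HFD+As replicate 1 (-0.92 to -0.58 over the fits) and the Jun call without either LFD array or HFD+As replicate 1 (-0.61 to -0.58).

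Of C/EBP relatives and other liver transcription factors, 12 of 14 were tested. None passed for HFD against LFD, and 5 fell and 0 rose in HFD+As against LFD livers, where Cebpb rose. They included Foxa1, a pioneer factor of liver genes (log2 fold change -0.79, SE 0.12, adjusted p = 0.00366), whose call held in all 8 fits that left out an array, and Nr3c1, the glucocorticoid receptor (-0.48, SE 0.11, adjusted p = 0.0148), whose call was lost without either LFD array or HFD+As replicate 1 (-0.57 to -0.40) and had an adjusted p of up to 0.0701 in the other settings. The downstream acute phase products are the output of these routes, and 26 of 28 were tested. In HFD against LFD livers 7 rose and 0 fell, with a list median of 0.49, and in HFD+As against HFD livers 0 rose and 3 fell, with a median of -0.39. In HFD+As against LFD livers 7 rose and 0 fell, with a median of 0.14. Without LFD replicate 1 there were 0 calls for either group against LFD. For HFD against LFD, 3 rose without HFD replicate 2 and 4 without LFD replicate 2. For HFD+As against LFD, 2 rose when HFD+As replicate 1 was left out, and 4 rose and 1 fell when the other HFD+As array was. For HFD+As against HFD the number that fell was 0 to 4 over these fits, and it was 0 when HFD+As replicate 1 was left out, 2 for HFD+As replicate 2 and 1 for HFD replicate 1 or either LFD array. Lcn2, a product whose transcription is known to need IkB-zeta, rose in HFD against LFD livers (log2 fold change 3.06, SE 0.37, adjusted p = 0.00417). It also rose in HFD+As against LFD livers (2.15, SE 0.37, adjusted p = 0.00518). In LFD+As against LFD livers 1 rose, again Lcn2 (log2 fold change 2.31, SE 0.37, adjusted p = 0.0396), while Nfkbiz was not called there. That call was lost without LFD replicate 1, LFD+As replicate 1 or either HFD+As array (1.69 to 2.92), and its adjusted p reached 1 in the other settings. Quantile normalization left 1 higher call for HFD against LFD, 9 for HFD+As against LFD and 0 calls for HFD+As against HFD.

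The livers matched their label: 9 of 10 hepatocyte markers were measured, at a mean log2 signal of 13.5 to 13.7 in every array. Macrophages respond to IL-1 and express several of these genes, and 12 of 14 macrophage markers were tested. In HFD against LFD livers 9 of the 12 were above 0 and 0 passed (median 0.20), and in HFD+As against HFD livers 11 of 12 were below 0 and 3 fell (median -0.45). Their mean signal was 8.83 and 8.75 in HFD+As, 9.26 and 9.05 in HFD, 8.82 and 9.07 in LFD+As and 9.01 and 8.93 in LFD livers. Of 10 sinusoidal endothelium markers, 10 were below 0 and 1 fell in HFD+As against HFD (median -0.47), and 5 fell in HFD+As against LFD. On plain water, 8 of the 10 were below 0 in HFD against LFD livers and 0 passed (median -0.09). Of all tested genes, 27.7% were above 0 and 3.25% fell in HFD+As against HFD, and 12.4% fell in HFD+As against LFD. The calls for HFD+As against HFD in both lists were 0 after quantile normalization and 0 without HFD replicate 1, HFD+As replicate 1 or either LFD array. Without HFD replicate 2 they were 6 macrophage and 7 endothelial markers, without either LFD+As array 5 and 2, and without HFD+As replicate 2 they were 1 and 0. The endothelial calls for HFD+As against LFD were 1 without LFD replicate 1 or HFD+As replicate 1. Of 12 neutrophil markers, 2 were tested, and 1 of them rose in HFD+As against LFD; the list's mean signal lay between 6.21 and 6.65. Stellate cell markers (9 tested) had 0 calls in HFD against LFD and in HFD+As against HFD. Lymphocyte (5 tested) and cholangiocyte markers (2 tested) likewise had 0 calls in both. Macrophage markers, endothelial markers and members were mostly below 0 in HFD+As against HFD livers. So were 9 of 9 stellate cell, 7 of 9 hepatocyte and 2 of 2 cholangiocyte markers. Only 1 of 5 lymphocyte and 0 of 2 neutrophil markers were below 0. For LFD+As against LFD, 8 of 12 macrophage and 9 of 10 endothelial markers were below 0, while all 8 members were above 0. For HFD+As against LFD, 9 of 12 and 9 of 10 were below 0, against 2 of the 8 members. The part of these marker shifts in the members' differences was not tested. In bulk liver, fewer cells of a type and less RNA per cell cannot be told apart.

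Signals also followed the genomic span of genes, differently by array. The rank correlation across genes between an array's deviations and span was -0.45 and -0.29 in HFD+As, 0.245 and -0.14 in HFD, 0.22 and 0.35 in LFD+As and 0.34 and 0.14 in LFD. Il1rap is a long gene (148620 bases, longer than 93.6% of tested genes), and Osmr, Stat3, Il6ra and Il6st lay between the 70.7 and 79.1 percentiles. Cebpb (1518 bases) and Socs3 are short, at the 3.63 and 12.3 percentiles. With this trend removed, the log2 fold change of HFD+As against HFD was -0.28 for Il1rap, -0.30 for Il6st and -0.03 for Cebpb. The Cebpb difference of HFD+As from LFD was then 0.38 (adjusted p = 0.0914), and the Nfkbiz difference of HFD from LFD stayed at 0.80 (adjusted p = 0.0249).

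The genes whose pattern over the 8 arrays was most like that of Socs3 were Insc, Rrp15, Thyn1, Eif4e and Pawr. Likeness was the root mean square difference between the deviations of each gene from its own mean, and it was 0.092 for Insc, 0.0945 for Rrp15, 0.0964 for Thyn1, 0.0984 for Eif4e and 0.0985 for Pawr, against a median of 0.271 over all tested genes. The 5 were picked as the smallest differences, so values under that median follow from the choice. Only the brighter Socs3 cluster was used. None of the 5 is a member or a gene of the lists above.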

How the data were processed

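Mouse Gene 1.0 ST arrays (Affymetrix) held liver RNA of 40 mice, with 4 groups of 2 pools. Per the submitters' processing notes, Expression Console 1.0 was used. The authors deposited 1 log2 signal for each cluster and array; background correction and normalization are not given in the sources used here, and no detection calls were used. The number of arrays limits the precision.

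The cluster of highest mean stood for a gene, only clusters with 1 symbol (21789) being used. This gave 19938 genes, of which the 60% with the highest means (11963) were tested. Symbols came from the platform annotation, positions and promoter windows from RefSeq GRCm38.p6 (19919 genes matched). Differences were fitted with limma 3.58.1 in R 4.3.3 as 4 group means over all 8 arrays (4 residual and 9.32 prior degrees of freedom), with Benjamini-Hochberg adjustment over all genes tested in each comparison. Intervals are 95% from the moderated fit. Motif searches used Python 3.11.15.

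Members and lists were chosen with earlier results of these data known. All members are named in every comparison; of each pathway list, up to 4 genes past the threshold with the largest change were eligible to be named, or up to 2 by unadjusted p as values only. Markers are counted as lists. The comparisons with LFD share its 2 arrays. Replicate numbers were not treated as pairs. Alternatives were other filters, quantile normalization, removal of the trend with genomic span, a trended robust prior, a replicate block, the mean of a gene's clusters, the compared groups alone and each array left out. The fits were tested on simulated data.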

Additional observations from a re-analysis of the deposited data

Results flagged for a closer look

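Groups of 2 arrays are too small for a check of single outlying arrays. Opposite effects in all arrays of the compared groups drew attention to 4 genes, and the difference was tested for each. Every arsenite comparison here shares its HFD or LFD arrays with a diet comparison. For Stat3, both arrays moved down with arsenite on HFD (log2 fold change -0.365) and up on LFD (0.19), a difference of -0.55 (SE 0.18, adjusted p = 0.264). The same -0.55 is the diet effect under arsenite (-0.17) minus that on plain water (0.385). For Il6st the effects were -0.41 on HFD and 0.10 on LFD, with a difference of -0.51 (SE 0.20, adjusted p = 0.305). For Nfkbiz they were -0.45 and 0.28, with a difference of -0.73 (SE 0.19, adjusted p = 0.191). For Il1rap the diet effect was -0.30 under arsenite and 0.18 on plain water, with a difference of -0.48 (SE 0.17, adjusted p = 0.277). None of these differences passed the test.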

How the results depend on the processing

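The number of members past the threshold moved in 5 of the 8 comparisons. For HFD against LFD (1 as reported) it was 0 with no filter, 0 with the 40% highest means (where Nfkbiz is not tested) and 0 after quantile normalization, 2 with the intensity trend and robust prior and 2 with the compared groups alone, and 0 to 2 when an array was left out. For HFD+As against LFD (1) it was 0 with no filter and 2 after quantile normalization, and 0 to 1 without an array. For HFD+As against HFD (0) it was 1 with the trend and robust prior and 0 to 2 without an array. For HFD+As against LFD+As (0) it was 1 with the trend and robust prior, 1 with the compared groups alone and 0 to 1 without an array. For HFD averaged over both waters (2) it was 0 with no filter, 1 with the 40% highest means, 3 with the trend and robust prior and 0 to 2 without an array. The other 3 comparisons had 0 members past the threshold in every fit run. An unmoved count could hide a change of gene: for HFD+As against LFD with the span trend removed, Nfkbiz passed (adjusted p = 0.0462) and Cebpb did not (0.0914). Apart from the filters, where fewer or more genes were tested, the cause of the moves in these counts was not tested.

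Replicate deviations correlated weakly between groups, and not with 1 sign. The correlation was 0.179 between LFD and HFD, -0.212 between LFD and LFD+As and -0.217 between LFD+As and HFD. For HFD+As with the other groups it lay between -0.0771 and 0.0402. Whether arrays of different groups were handled together was not tested. With the replicate block the count for HFD averaged over both waters was 1, and no other count of members changed. Exchanging the numbers of LFD+As, chosen after seeing the data, left 1 member called for HFD against LFD and 3 for HFD averaged over both waters. Over all tested genes, calls for HFD+As against HFD then numbered 944, against 434 as reported and 230 with the block as numbered. Those for HFD+As against LFD numbered 2294, against 1909 and 1691.

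Of 131 gene and comparison pairs, 111 kept their sign in every fit. The pairs include list genes named for a large change or a small p, a choice that favours a kept sign. Single gene values numbered 2134 over these fits, of which 366 were judged weaker than reported and 17 stronger. Quantile normalization changed the share of all calls that were lower to 52.4% for HFD+As against LFD (77.5% as deposited), to 50% for HFD+As against HFD (89.6%, with 28 calls in place of 434), to 48.5% for HFD+As against LFD+As (82.2%) and to 50% for HFD against LFD (25.5%). All genes called for HFD+As against LFD numbered 1909, and 206 without HFD+As replicate 1. Those for HFD against LFD numbered 55, and 0 without LFD replicate 1. Without detection calls, dim signals such as that of Cebpd cannot be set against background.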
